A study of Mus musculus with 6 samples.

Results

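The genes described here are Ccl5, 3 further chemokine genes (Ccl3, Ccl4 and Xcl1) and 5 genes of cytotoxic granules (Gzma, Gzmb, Prf1, Nkg7 and Ctsw), 9 genes of 25790 with a value in all 6 libraries. They were chosen by name with measured FPKM of these libraries, including the difference between Bob1KO and WT, already known. The difference between Bob1KO and WT is therefore given for these 9 genes as a description, without a test. The libraries were made from follicular helper T (Tfh) cells, the CD4+ T cells that help B cells in germinal centers. Bob1KO cells came from FoxP3GFP/DTR CD4Cre/+Bob1fl/fl mice (3 libraries) and WT cells from control FoxP3GFP/DTR CD4+/+Bob1fl/fl mice (3 libraries), aged 6 to 12 weeks. Both groups carried the floxed Bob1 allele and the FoxP3GFP/DTR reporter, and both received 100 µg of NP-CGG, a hapten coupled to chicken gamma globulin, in complete Freund's adjuvant intraperitoneally on day 0. Splenic CD4+ cells positive for CD3, CXCR5 and PD-1 and negative for B220 and GFP were sorted on day 7. The 3 libraries of a group came from separate experiments with 10 to 12 mice each. Cre was driven by the Cd4 promoter element and acts in every cell that has expressed Cd4, and the WT mice carried no Cre, so that the effects of Cre and of the loss of Bob1 cannot be told apart.

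Ccl5, Ccl3 and Ccl4 are secreted chemokines that attract T cells, monocytes and natural killer (NK) cells, and Xcl1 attracts cross-presenting dendritic cells through Xcr1. Granzymes are serine proteases that reach the cytosol of a target cell through pores formed by perforin, the product of Prf1. Nkg7 is a membrane protein of the cytotoxic granule, and Ctsw encodes cathepsin W, a cysteine protease of cytotoxic lymphocytes. These genes are known from NK cells, CD8+ T cells and the less frequent cytotoxic CD4+ T cells. Bob1, encoded by Pou2af1, is a coactivator that binds DNA with the Oct-1 and Oct-2 proteins at the octamer motif.

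Values are FPKM (fragments scaled to transcript length and to the mapped total of the library), and log2 fold changes are Bob1KO over WT on the log2(FPKM + 1) scale, which understates the change of low genes. The fragments behind a library, as implied by the confidence intervals in the files, numbered 11500000, 13700000 and 10200000 in Bob1KO and 11200000, 11200000 and 12500000 in WT. Pou2af1, the deleted gene (chr9:51213690-51240079, GRCm38), had 1.16, 0.237 and 0.317 FPKM in Bob1KO libraries, against 46.1, 32.5 and 34.4 FPKM in WT libraries. Its log2 fold change was -4.65 (SE 0.256, limma adjusted P = 0.0034, lower in 3 of 3 libraries), matching the genotypes on the labels. The summed level of 10 Tfh markers lay between 2374 and 3138 FPKM in Bob1KO and between 2226 and 3208 FPKM in WT. Of these markers, Cd4 alone did not overlap between the groups and was higher in Bob1KO (log2 fold change 0.36, SE 0.128, limma adjusted P = 0.922). Over all tested genes, 5.85% were higher without overlap. The summed level of 10 myeloid markers ranged from 85.6 to 4500 FPKM in Bob1KO and from 543 to 1019 FPKM in WT, and it was highest in Bob1KO 1 and lowest in Bob1KO 2. Of 10345 genes with a mean of at least 1 FPKM, 2 (0.0193%) passed an adjusted P of 0.05 in limma: Pou2af1 and Pcsk1, which was named after its values were seen. With the replicate number as a block, 1 of them passed (Pou2af1, adjusted P = 0.00576), while Pcsk1 had an adjusted P of 0.024 without and 0.212 with the block.

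Since Bob1 acts at the octamer, the 250 bases upstream of the start sites of the members were searched. Of the 9 genes, 6 had a promoter in the RefSeq table (GRCm38.p6): Ccl3, Xcl1, Gzma, Gzmb, Prf1 and Nkg7. Those of 1 chemokine and 1 granule gene with lower mean levels in Bob1KO (Ccl3 and Gzmb), and of 1 granule gene without (Gzma), are shown in the direction of transcription. Capitals mark matches to the Runx core TGTGGT on either strand (ACCACA on the other strand) and to the AP-1 site TGANTCA.

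Ccl3 promoter, chr11:83649379-83649628, minus strand: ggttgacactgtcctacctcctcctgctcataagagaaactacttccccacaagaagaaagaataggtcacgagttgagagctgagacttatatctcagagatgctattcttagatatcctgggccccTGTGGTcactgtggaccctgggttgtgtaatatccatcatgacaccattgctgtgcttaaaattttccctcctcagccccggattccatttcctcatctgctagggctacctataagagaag
Gzmb promoter, chr14:56262335-56262584, minus strand: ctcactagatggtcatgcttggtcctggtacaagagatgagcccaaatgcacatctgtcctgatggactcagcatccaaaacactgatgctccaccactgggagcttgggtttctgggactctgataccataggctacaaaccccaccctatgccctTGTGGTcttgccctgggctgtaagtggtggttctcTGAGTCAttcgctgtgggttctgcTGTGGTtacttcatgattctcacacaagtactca
Gzma promoter, chr13:113100982-113101231, minus strand: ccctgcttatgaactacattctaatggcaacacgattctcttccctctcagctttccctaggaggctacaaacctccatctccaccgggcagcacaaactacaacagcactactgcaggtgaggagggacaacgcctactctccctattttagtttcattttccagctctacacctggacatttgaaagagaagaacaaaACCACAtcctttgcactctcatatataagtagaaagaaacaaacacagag

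The octamer ATGCAAAT was found on neither strand of the 6 windows, and 1.6% of 32851 promoters of the same length held it. At that share most windows lack the octamer, so nothing is read from its absence. Ccl5, Ccl4 and Ctsw had no promoter in the RefSeq table and were not searched. The Runx core TGTGGT was found in 6 of 6 windows and in 14% of all promoters. In Gzmb it began 93 and 34 bases before the start site, with the AP-1 site between them at 58 bases. The T-box sequence TCACACC was found in Nkg7 and Xcl1 (3.33% of all promoters), and the AP-1 site in Gzmb alone (6.75%). The CRE TGACGTCA (1.55%) and the kappaB site (3.9%) were found in none of the 6. A match is a description of the letters in this window and was not read as a binding site. The Runx core was present both in members with lower means in Bob1KO and in Gzma and Xcl1, whose means were not lower.

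Among the chemokines, Ccl5 was the most abundant and had the lowest log2 fold change. Ccl5 (Entrez 20304, chr11:83525778-83530518, protein coding, coordinates here and below on GRCm38) was measured at 59.6, 85.6 and 22.9 FPKM in Bob1KO, against 275, 159 and 99.9 FPKM in WT. The highest Bob1KO library thus lay below the lowest WT library, and over the 6 libraries the levels spanned 12-fold. The means were 56 ± 31.5 FPKM in Bob1KO and 178 ± 89.1 FPKM in WT (SD, n = 3 each), a ratio of 0.315 and a log2 fold change of -1.72 (SE 0.529). It was the 24th lowest log2 fold change of 10345 genes, and 92.4% of the tested genes had a lower mean FPKM than Ccl5. The counting intervals of the file (95%) were much narrower than the spread between libraries, from 19.3 to 26.4 FPKM in Bob1KO 3 and from 264 to 287 FPKM in WT 1. In bulk RNA, fewer cells with Ccl5 and less Ccl5 RNA per cell cannot be told apart.

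Ccl5 rested on 167 to 2301 implied fragments per library. Its row carried the gene name in 2 libraries, Bob1KO 1 and 3, and was an assembled transcript with the same coordinates in the other 4. The length implied by FPKM and fragments was 0.715 to 0.802 kb over the 6 libraries, so that named and assembled rows of Ccl5 were scaled alike. The implied length varied more for Gzmb (2 to 2.72 kb) and Xcl1 (0.483 to 0.716 kb). The FPKM of these 2 genes are therefore less comparable between libraries. The authors' own group values, 65.6 FPKM for Bob1KO and 207 FPKM for WT, give a log2 ratio of -1.64.

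Ccl4 (Entrez 20303, chr11:83662584-83664683) had 3.02, 11.9 and 2.45 FPKM in Bob1KO, against 27.3, 15.7 and 11.6 FPKM in WT. Bob1KO 1 and 3 were low and Bob1KO 2 lay just above WT 3, so the groups overlapped. The means were 5.79 ± 5.3 FPKM in Bob1KO and 18.2 ± 8.12 FPKM in WT (SD, n = 3 each), with a log2 fold change of -1.68 (SE 0.532). The log2 fold change of Ccl4 was close to that of Ccl5, at a lower level, and the ratio of Ccl5 to Ccl4 was 19.7, 7.19 and 9.32 in Bob1KO and 10.1, 10.1 and 8.63 in WT.

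Ccl3 (Entrez 20302, chr11:83647843-83649378), which encodes the chemokine most related to Ccl4 among the members, had 3.17, 3.07 and 2.11 FPKM in Bob1KO, against 10.5, 7.44 and 2.26 FPKM in WT. The first 2 WT libraries were high, and WT 3 was as low as the Bob1KO libraries. The means were 2.78 ± 0.586 FPKM in Bob1KO and 6.73 ± 4.16 FPKM in WT (SD, n = 3 each), with a log2 fold change of -0.86 (SE 0.447). Without WT 1 it was -0.48, and without WT 3 it was -1.39. Ccl3, Ccl4 and Ccl5 lie on chromosome 11, and the library kit does not mark the strand. The RefSeq span of Ccl4 (chr11:83648624-83664683) overlaps Ccl3, but the measured row of Ccl4, with the coordinates given above, does not.

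Xcl1 (Entrez 16963, chr1:164931644-164935522) did not share this pattern. It had 10.8, 7.54 and 6.4 FPKM in Bob1KO, against 6.41, 6.66 and 10.1 FPKM in WT, and the groups lay within the same range. Its log2 fold change was 0.08 (SE 0.237), with means of 8.24 ± 2.26 FPKM in Bob1KO and 7.71 ± 2.05 FPKM in WT (SD, n = 3 each). The sum of the 4 chemokines was 76.6, 108 and 33.8 FPKM in Bob1KO and 319, 189 and 124 FPKM in WT, and most of it was Ccl5.

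**Figure D1:**
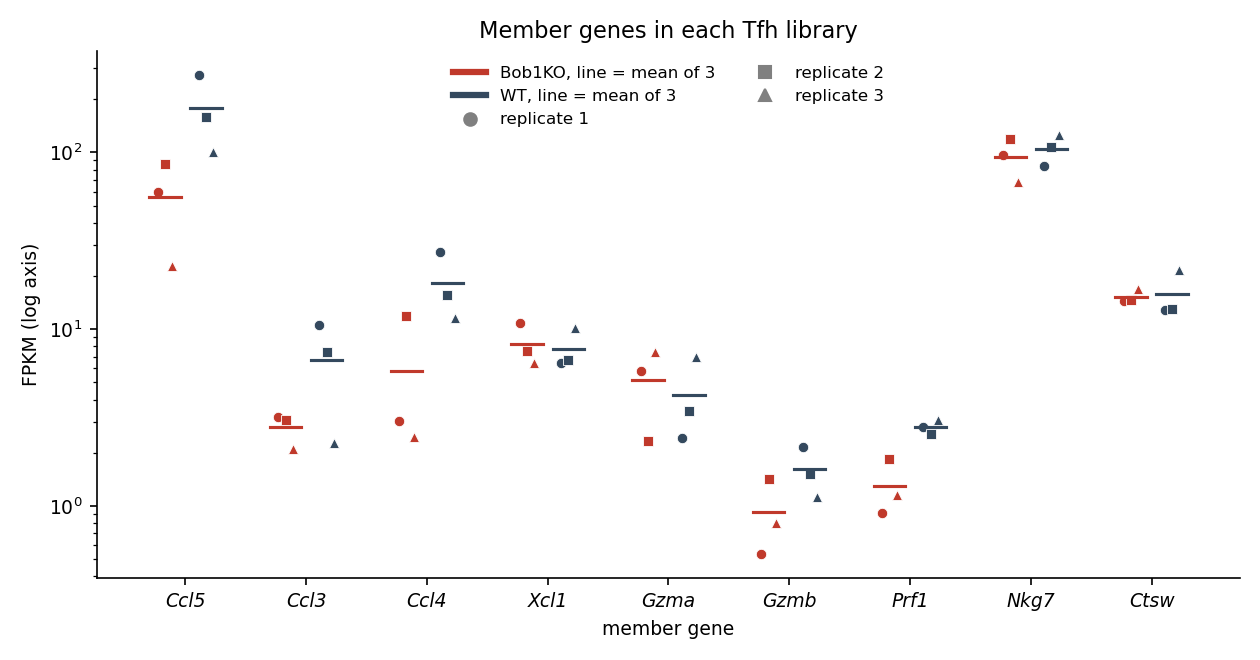
FPKM of the 9 members (log axis) in each of 3 Bob1KO libraries (red, left) and 3 WT libraries (blue, right), with a line at each group mean and the marker shape giving the replicate number. The Bob1KO libraries of Ccl5 sit between 22.9 and 85.6 FPKM, all below the WT libraries at 99.9 to 275 FPKM, and those of Prf1 between 0.907 and 1.84 FPKM, below WT at 2.56 to 3.06 FPKM, while Xcl1, Gzma, Nkg7 and Ctsw overlap widely.

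Among the granule genes, Prf1 was the one with no overlap between the groups. Prf1 (Entrez 18646, chr10:61297751-61304684) had 0.907, 1.84 and 1.16 FPKM in Bob1KO, against 2.78, 2.56 and 3.06 FPKM in WT. All WT libraries were close together, and all Bob1KO libraries lay below them. The means were 1.3 ± 0.484 FPKM in Bob1KO and 2.8 ± 0.246 FPKM in WT (SD, n = 3 each), with a log2 fold change of -0.74 (SE 0.219). These levels were low, since 8.93% of the tested genes had a lower mean, and they rested on 38 to 149 implied fragments per library.

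Gzmb (Entrez 14939, chr14:56258836-56262334), the granzyme that cleaves caspases, was at the lower limit of what was tested. It had 0.536, 1.42 and 0.803 FPKM in Bob1KO, against 2.17, 1.52 and 1.13 FPKM in WT, from 16 to 53 implied fragments. The groups overlapped, with WT 3 below Bob1KO 2. Its log2 fold change was -0.45 (SE 0.271), with means of 0.921 ± 0.456 FPKM in Bob1KO and 1.61 ± 0.526 FPKM in WT (SD, n = 3 each). Because of the low level, this value depended on the pseudocount and was -0.79 with 0.1 in place of 1. Gzmb belongs to a cluster of similar granzyme genes, whose reads may be shared.

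Gzma (Entrez 14938, chr13:113093824-113100981), which encodes a tryptase, was not lower in Bob1KO. It had 5.78, 2.34 and 7.44 FPKM in Bob1KO, against 2.41, 3.43 and 6.98 FPKM in WT. The replicate 3 libraries of both groups were highest, and the log2 fold change was 0.22 (SE 0.431). The means were 5.19 ± 2.6 FPKM in Bob1KO and 4.27 ± 2.4 FPKM in WT (SD, n = 3 each). The ratio of Gzma to Gzmb was 10.8, 1.65 and 9.27 in Bob1KO and 1.11, 2.25 and 6.19 in WT, so that no single ratio held within a group.

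Nkg7 (Entrez 72310, chr7:43437138-43438246) was the most abundant granule gene, at 96.2, 119 and 68.3 FPKM in Bob1KO, against 83.6, 107 and 125 FPKM in WT. The groups overlapped, with a log2 fold change of -0.17 (SE 0.232). The means were 94.5 ± 25.4 FPKM in Bob1KO and 105 ± 20.9 FPKM in WT (SD, n = 3 each). Nkg7 therefore exceeded Ccl5 in all 3 Bob1KO libraries, with ratios of 1.61, 1.39 and 2.99, and in 1 of the WT libraries, with ratios of 0.304, 0.671 and 1.25.

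Ctsw (Entrez 13041, chr19:5465043-5468628) had 14.5, 14.6 and 16.9 FPKM in Bob1KO, against 12.8, 13 and 21.7 FPKM in WT. Its levels were alike apart from WT 3, and its log2 fold change was -0.01 (SE 0.213). The means were 15.3 ± 1.33 FPKM in Bob1KO and 15.8 ± 5.11 FPKM in WT (SD, n = 3 each). The sum of the 5 granule genes was 118, 139 and 94.6 FPKM in Bob1KO and 104, 127 and 158 FPKM in WT, and most of it was Nkg7.

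All 9 members passed the filter of a mean of 1 FPKM. Gzmb did so only through its WT libraries, with means of 0.921 FPKM in Bob1KO and 1.61 FPKM in WT. Of the members, 7 had a negative and 2 a positive log2 fold change. Their median was -0.45, the value of Gzmb itself, beside -0.00 for all genes tested. The median was -1.27 for the 4 chemokines and -0.17 for the 5 granule genes. The groups did not overlap in 2 members, both lower in Bob1KO (Ccl5 and Prf1), where 4.83% of tested genes were lower and 5.85% higher without overlap. Within replicate numbers, 5 of 9 members (Ccl5, Ccl3, Ccl4, Gzmb and Prf1) were lower in Bob1KO in 3 of 3 comparisons, where 13.4% of all tested genes were lower and 14.9% higher in all 3. As the members were chosen on this contrast, nothing is read from these counts.

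The differences were uneven over the replicate numbers, which were not shown to pair the libraries. For Ccl5 the difference on the log2(FPKM + 1) scale was -2.19, -0.89 and -2.08 for numbers 1, 2 and 3. For Ccl4 it was -2.81, -0.37 and -1.86, and for Prf1 -0.99, -0.33 and -0.91. Number 2 thus gave the smallest difference for each of these genes, and Bob1KO 2 was the highest of the Bob1KO libraries for all 3. Gzmb was likewise at -1.04, -0.06 and -0.24, whereas Ccl3 was at -1.46, -1.05 and -0.07, with the smallest difference in number 3. Bob1KO 2 also had the fewest myeloid transcripts (summed markers 85.6 FPKM, against 1450 and 4500 FPKM in the other Bob1KO libraries). Their part in the members' levels was not tested. Without both replicate 2 libraries, a comparison added after the data were seen, the log2 fold change of Ccl5 was -2.13.

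**Figure D2:**
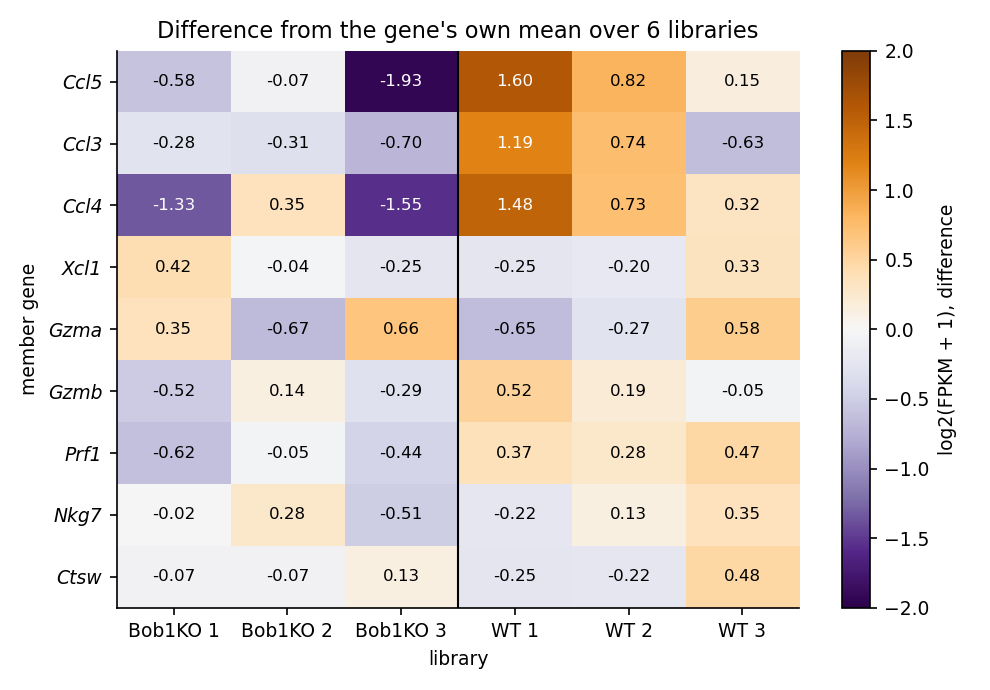
Difference of each library from the gene's own mean over 6 libraries on the log2(FPKM + 1) scale (color and printed value) for the 9 members (rows), with the Bob1KO libraries left of the line and the WT libraries right of it. Ccl5 runs from -1.93 in Bob1KO 3 to 1.60 in WT 1, Ccl4 runs from -1.55 to 1.48 in the same libraries, and Gzma has the opposite sign to Ccl5 in 4 of the 6.

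Members varied together in part. Over the 6 libraries, the correlation of log2(FPKM + 1) with Ccl5 was 0.94 for Ccl4, 0.84 for Ccl3, 0.82 for Gzmb and 0.77 for Prf1. With the group means subtracted these values were 0.84, 0.73, 0.65 and 0.26, so that Prf1 followed Ccl5 mainly through the difference between the groups. Gzma ran the other way, with -0.71 overall and -0.90 within groups, and Ctsw likewise with -0.43 and -0.71. Xcl1 (-0.15) and Nkg7 (0.39) showed little relation. The highest positive value next to that of Ccl5 and Ccl4 was that of Ccl4 and Gzmb, with 0.94 over the 6 libraries and 0.91 within groups. Gzmb rested on only 16 to 53 implied fragments per library, and its implied length varied from 2 to 2.72 kb. Within groups, Ccl3 and Ctsw (-0.98) and Ccl4 and Gzma (-0.95) ran in opposite directions. The points are 6 libraries that share the group difference, and the values are descriptions.

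**Figure D3:**
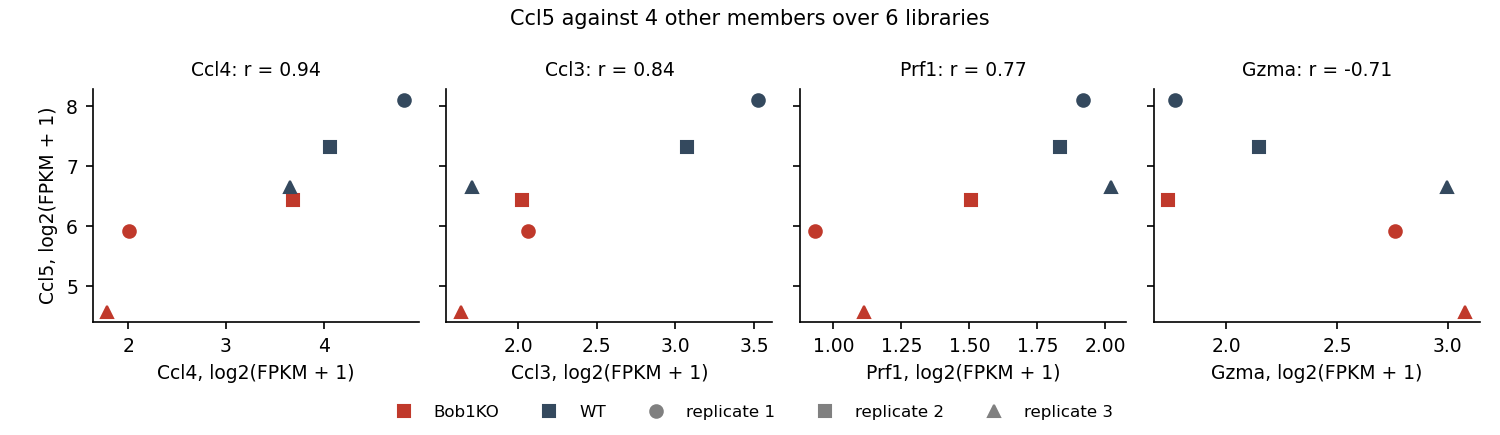
Ccl5 (vertical axis) against Ccl4, Ccl3, Prf1 and Gzma (horizontal axes), all as log2(FPKM + 1), for 3 Bob1KO libraries (red) and 3 WT libraries (blue), with the marker shape giving the replicate number. Ccl4 increases with Ccl5 over the 6 libraries (r = 0.94) and Gzma decreases (r = -0.71), while Prf1 separates the groups with little order within WT.

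The genes whose levels were most like those of Ccl5 over the 6 libraries were Ccdc132 (r = 0.989), Psen2 (0.983), D8Ertd82e (0.980), Pdlim7 (0.980), Xlr4c (0.978) and Fcrl1 (0.976). Their own spans were smaller than that of Ccl5. For example, Ccdc132 had 8.5, 9.14 and 6.32 FPKM in Bob1KO, against 13.1, 12.1 and 10.5 FPKM in WT. Of all tested genes, 189 (1.83%) had an r above 0.8 and 47 (0.454%) above 0.9.

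The remaining genes of the pathway were described from 7 lists, and none of their genes passed an adjusted P of 0.05 in limma. At an unadjusted P under 0.05, 7 of 75 tested genes passed, where 5.33% of all tested genes did so. Of 32 other chemokine ligands, 4 reached a mean of 1 FPKM, and their median log2 fold change was 0.29. Cxcl10, an interferon-induced ligand of Cxcr3, was the most abundant, at 41, 74 and 32.4 FPKM in Bob1KO, against 69.9, 40.9 and 22.3 FPKM in WT (log2 fold change 0.20, SE 0.445). Ccl25 was at -0.94 and listed at 0 in Bob1KO 1, and without that library it was at -0.26. Ccl6 (0.38) and Cxcl2 (1.11), known from myeloid cells, were highest in Bob1KO 1, the library with the most myeloid transcripts. Without that library Ccl6 was at -0.17 and Cxcl2 at 0.34. Whether myeloid cells contributed to the levels of Ccl6 and Cxcl2 was not tested.

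Of 8 other granzymes, Gzmk alone was tested. It was more abundant than any of the member granzymes, at 32, 23.4 and 45.1 FPKM in Bob1KO, against 43.7, 35.3 and 51 FPKM in WT. The groups overlapped, with a log2 fold change of -0.39 (SE 0.247, adjusted P = 0.946). The genes of granule processing and exocytosis, 18 of 20 tested, had a median log2 fold change of 0.09. The lowest P among them were those of Stx11 (log2 fold change 0.63) and Stxbp2 (-0.39), which encode a syntaxin and its partner in granule fusion, and of Lamp2 (0.45), a lysosomal membrane protein. Srgn, the proteoglycan that holds granzymes in the granule, was among the most abundant, with a log2 fold change of -0.01 (SE 0.173), and Ctsb, a lysosomal protease, was at 0.59 (SE 0.478), but at 0.00 without WT 2, where it had 210 FPKM, and at 0.93 without WT 1. The inhibitors of granzymes and cathepsins, 7 of 8 tested, had a median of 0.09, with Cstb at -0.17, Serpinb6b at 0.19, Serpinb9, an inhibitor of granzyme B, at 0.12 and Cst3 at 0.09.

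Other effector ligands, 7 of 8 tested, had a median of -0.14. Ifng, the main cytokine of Th1 cells, had 40.8, 59.3 and 35 FPKM in Bob1KO, against 58.7, 46.5 and 53.2 FPKM in WT (log2 fold change -0.25, SE 0.203). Tnf was at 0.36, Lta at -0.16, Ltb at -0.14 and Tnfsf10, the death ligand TRAIL, at 0.36. Transcription factors that act on these genes, 19 of 21 tested, had a median of 0.11. Nfkb1, a subunit of NF-kappaB, was at 0.95 (SE 0.382) and Irf4 at 0.53 (SE 0.221), both with an unadjusted P under 0.05 and an adjusted P of 0.928. The groups of Nfkb1 overlapped, and its value was 0.55 without Bob1KO 1 and 1.35 without Bob1KO 3. Stat5a was at 0.20, and the most abundant factors, Tcf7 and Nfatc1, were at 0.11 and 0.39.

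Genes of Th1 and cytotoxic CD4+ T cells, 19 of 20 tested, had a median of 0.13. The smallest P was that of Cxcr6, a homing receptor for Cxcl16, at 16, 13 and 13.1 FPKM in Bob1KO, against 26.1, 20.6 and 22.6 FPKM in WT. Its groups did not overlap, with a log2 fold change of -0.68 (SE 0.143) and an adjusted P of 0.454 in limma. Anxa2 (0.55, groups without overlap) and S100a4 (0.94, groups overlapping) lay in the opposite direction at an unadjusted P under 0.05. The abundant genes Ly6a and Lgals1 were at 0.35 and -0.10. Of the 19 genes, 1 was lower and 2 were higher without overlap, where 4.83% of all tested genes were lower and 5.85% higher.

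**Figure D4:**
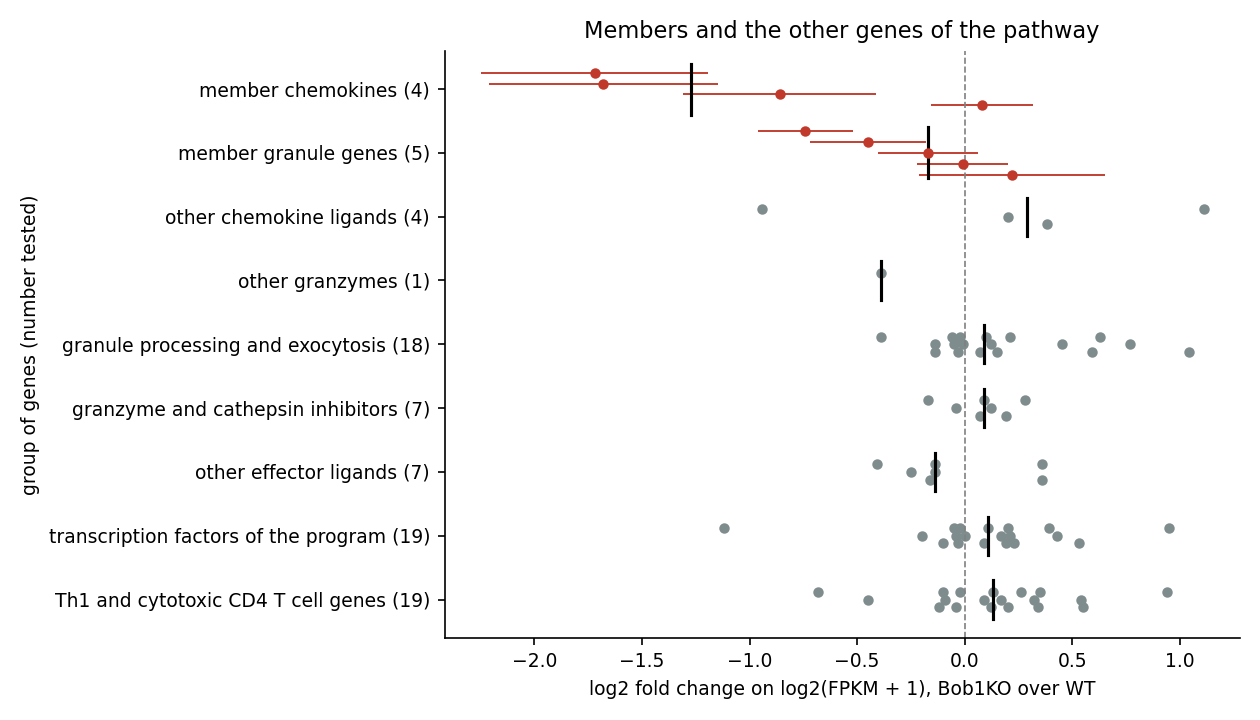
Log2 fold change (Bob1KO over WT) of the members (red, with bars of 1 SE) and of the tested genes of 7 lists of the pathway (grey), with a black line at each group's median and the number tested in parentheses. The 4 member chemokines have a median of -1.27 and the 5 granule genes of -0.17, while the medians of the 7 lists lie between -0.39 and 0.29.

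Markers of other cells that express the members were measured in the same libraries. Cd8a was at most 0.139 FPKM in any library, and the 2 CD8 T markers summed to 3.45 to 5.19 FPKM in Bob1KO and 4.62 to 6.07 FPKM in WT, nearly all of it Cd8b1. Ncr1, which defines NK cells, was at most 0.29 FPKM and listed at 0 in 2 libraries. The 11 NK markers summed to 23.8 to 118 FPKM in Bob1KO and 35.1 to 47.8 FPKM in WT, and Tyrobp and Fcer1g, which myeloid cells share, were highest in Bob1KO 1 (56.3 and 40.6 FPKM) and lowest in Bob1KO 2 (1.75 and 1.48 FPKM). Klrb1c, which encodes NK1.1, was at 12.2, 8.55 and 8.83 FPKM in Bob1KO and 8.46, 10.6 and 7.89 FPKM in WT. Eomes, a T-box factor of NK and cytotoxic T cells, was at 6.79, 9.91 and 8.41 FPKM in Bob1KO and 4.04, 8.4 and 13.1 FPKM in WT. Klrb1c and Eomes were thus not near 0, whereas the remaining NK markers were low. In any library Klrd1 was at most 1.23, Klrc1 0.782, Klra8 0.6, Klrk1 0.389, Klre1 0.289 and Itga2 0.169 FPKM. The part of NK cells in the members' levels was not tested. Of the NKT and gamma delta T markers, 3 of 4 had a value, Zbtb16 was at most 0.576 FPKM, and the sum was 15 to 36.7 FPKM in Bob1KO and 23.5 to 42.2 FPKM in WT. Cd160 made up nearly all of it, at 18, 36.6 and 14.5 FPKM in Bob1KO, against 41.6, 36.1 and 23.4 FPKM in WT (log2 fold change -0.60, SE 0.356, adjusted P = 0.946). Its lowest library, Bob1KO 3, and its highest, WT 1, were those of Ccl5, and its part in the level of Ccl5 was not tested.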

How the data were processed

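Total RNA (0.7 ng) of sorted Tfh cells was made into libraries with the SMART-Seq v4 kit, which does not mark the strand. According to the submitters' processing notes, reads were trimmed with cutadapt 1.2.1, aligned to GRCm38 (mm10) with TopHat2 2.0.13 and quantified with Cufflinks 2.2.1. The deposited values are FPKM per gene, made by the authors from transcripts assembled in each library alone, with a 95% confidence interval from which fragments were derived as 4 times the square of FPKM over the interval's half-width. Such intervals cover counting error only. A further deposited table holds 1 FPKM per group, printed as the authors' value. It also holds the authors' own fold change, test statistic and P values, which were not used. No source used here names the version of the annotation.

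Rows without a gene name held 94.1% to 95.9% of the summed FPKM. These rows were assigned by position to the gene with which they shared at least 0.5 of the joint length, then to a gene without a row that they covered to at least 0.95. The FPKM of a gene's rows were summed, and 91.6% to 92.3% of the FPKM were assigned. Each member had 1 row in each library. A gene was left out where the estimate of any of its rows was flagged as other than OK in any library. The values of 0 given here carried no such flag, and whether they are true zeros was not tested. Genes that overlap cannot be told apart. Genes with a mean of at least 1 FPKM (10345 of 25790) were transformed to log2(FPKM + 1) and fitted in limma 3.58.1 (R 4.3.3) with a mean-variance trend and a group term, with two-sided tests and Benjamini-Hochberg adjustment at 0.05. With 3 libraries per group, the smallest exact permutation P is 0.1. The P values set the group difference against the spread between libraries, which limma shares in part over genes. As the libraries came from separate experiments with several mice each, this is not the spread between mice. The fit was also run on simulated data, where the check covered only the estimated size of large added changes in abundant genes. How many changed genes were called there was not part of the check. Python 3.11.15 (pandas 2.3.3) was used for the tables.

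The members and lists were chosen with earlier results of these data known. A further list of the pathway is not reported here. From each list, the text names up to 3 tested genes with the smallest P and the 2 with the highest mean, of the markers only those it needs, and the 6 genes most correlated with Ccl5. The deviations from the group means of libraries with the same replicate number correlated at 0.117, 0.137 and 0.104. All other combinations were negative, which is partly forced, because the deviations within a group cancel out. These weak values do not show that the numbers pair the libraries. Comparisons within replicate numbers and the replicate block assume such a pairing. Alternatives were filters, pseudocounts, scalings, no trend, the replicate block, an overlap of 0.7 and the omission of each library. Promoters came from RefSeq (GRCm38.p6).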

Additional observations from a re-analysis of the deposited data

How the results depend on the processing

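The log2 fold change of Ccl5 was negative under every alternative tried. As all its Bob1KO libraries lay below all WT libraries, leaving libraries out could not change the sign. The value ranged from -2.11 (without Bob1KO 2) to -1.18 (without Bob1KO 3) when single libraries were left out. It ranged from -1.74 to -1.63 under other filters, pseudocounts and scalings, and was -1.72 with the replicate block. A filter or the block cannot move this estimate in a balanced design, so nothing is read from its sign. The median of the members was -0.45. It was -0.17 with a minimum mean of 5 FPKM, which removes Ccl3, Gzmb, Prf1 and Gzma, -0.79 with a pseudocount of 0.1, -0.16 with a pseudocount of 5, and -0.64 to -0.30 when libraries were left out. Prf1 was -1.10 and -0.31 with pseudocounts of 0.1 and 5. The signs of Xcl1, Gzma, Nkg7 and Ctsw changed when single libraries were left out, with ranges of -0.11 to 0.27, -0.05 to 0.62, -0.35 to 0.04 and -0.13 to 0.23.

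The number of genes called was 2. It was 8 with no filter on low values, 1 with a minimum mean of 5 FPKM, 1 with a pseudocount of 0.1, 1 with the replicate block, and from 1 (without Bob1KO 3) to 7 (without WT 1) and 4 (without WT 3) when libraries were left out. No pathway gene was called under any alternative. Pou2af1 missed the threshold with no filter (adjusted P = 0.0695) and without both replicate 2 libraries (0.0731). Pcsk1 missed it with no filter (0.119), with a pseudocount of 0.1 (0.0882), without Bob1KO 1, 2 or 3 (0.108, 0.0822 and 0.123), without WT 2 (0.0886) and without both replicate 2 libraries (0.235). The minimum mean of 5 FPKM removed Pcsk1, whose mean was 3.93 FPKM. The cause of the other shifts was not tested. Srgn was at 0.03 with upper quartile scaling and 0.04 with quantile normalization. When libraries were left out, the sign changed for Cxcl10 (-0.21 to 0.59), Ccl6 (-0.17 to 1.2), Srgn (-0.13 to 0.11), Cst3 (-0.19 to 0.28), Nfatc1 (-0.20 to 0.79) and Lgals1 (-0.31 to 0.07). Single libraries also moved Gzmk (-0.63 to -0.17), Cd160 (-0.98 to -0.34) and Tnf (0.10 to 0.50). The replicate block changed no other call named here than that of Pcsk1. Counting limits the low members most, with 16 to 53 implied fragments for Gzmb.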

Other observations

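The genes around Ccl5 on chromosome 11 were also described. Apart from Ccl3 and Ccl4, 13 genes within 500000 bases were tested. Their log2 fold changes ran from -0.20 to 0.38 around a median of 0.04 (7 above and 6 below 0), and 0 passed an adjusted P or an unadjusted P of 0.05 in limma. The nearest tested genes on either side, Taf15 and Ccl6, were at -0.02 (SE 0.403) and 0.38 (SE 0.561). AI662270, named after its values were seen, was the only one of them whose groups did not overlap. It had 69.7, 66.1 and 65.4 FPKM in Bob1KO, against 72.1, 75.2 and 83.9 FPKM in WT. Over all tested genes, 4.83% were lower in Bob1KO without overlap and 5.85% higher.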
